A study of Mus musculus with 6 samples.

Results

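The genes described here are 10 members of the thiol peroxidase system of mouse MC38 cells: the peroxiredoxin genes Prdx1 to Prdx6, the thioredoxin genes Txn1 and Txn2, the thioredoxin reductase gene Txnrd2 and the thioredoxin-interacting protein gene Txnip. They were chosen by the target IDs PRDX1, PRDX2, PRDX3, PRDX4, PRDX5, PRDX6, TXN1, TXN2, TXNRD2 and TXNIP, and all 10 were found among the 30828 targets of the deposited table. The MC38 line derives from a colorectal tumour of the mouse. EPA cells were exposed for 24 h to eicosapentaenoic acid (EPA) at 50 µM, an omega-3 fatty acid supplied in unesterified form, and control cells were not. Both groups grew in RPMI medium with 10% foetal calf serum, and each had 3 samples of total RNA, each read on 1 Illumina bead array. Neither a vehicle nor a time is labelled for the controls, and an effect of either cannot be told apart from EPA.

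Peroxiredoxins reduce hydrogen peroxide and organic peroxides with a reactive cysteine. Thioredoxin reduces most of them again, thioredoxin reductase recharges thioredoxin with electrons from NADPH, and Txnip binds reduced thioredoxin and inhibits it. Cytosol and mitochondria hold separate sets, with Txn1 in the cytosol and Txn2, Txnrd2 and Prdx3 in mitochondria, while Prdx4 works in the endoplasmic reticulum.

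The array medians were 35.2 on all 6 arrays, since the deposited intensities were quantile-normalised, so a shift of all RNA together could not be seen. Targets were kept as above background where either group had all 3 arrays over an intensity of 39.64, which left 9242 named genes for testing. In limma, 3157 of these (34.2%) passed an adjusted p of 0.05, 1710 higher (18.5%) and 1447 lower (15.7%) with EPA. The 3 EPA arrays lay wholly above or below the 3 control arrays for 47.7% of genes. Of 12 colon epithelial markers, only Krt8, Lgals4 and Cldn7 were above background, while Epcam, Cdh1, Cdx2 and Vil1 were not. Leukocyte markers above background were Cd68 and Cd14 of 9, and none of 4 endothelial markers was. Of 6 fibroblast markers, 4 were above background and 3 of these rose, and the summed intensity of the 6 was 927 to 951 on EPA arrays and 511 to 538 on control arrays. The epithelial sum was 408 to 439 on EPA arrays and 401 to 434 on control arrays. For leukocytes it was 411 to 425 on EPA arrays and 398 to 444 on control arrays, and for endothelium 128 to 135 and 115 to 135. These ranges overlapped, and no epithelial or leukocyte marker above background was called. Whether the shift of the fibroblast markers had a part in the results below was not tested. In such bulk RNA, fewer cells of a type and less RNA per cell cannot be told apart. Separate cultures are not stated for the samples of either group, and the p-values then reflect only sample-to-sample spread, possibly technical.

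Setting EPA cells against control cells asked whether the transcripts of this peroxide-reducing system differed with the fatty acid. Txnip fell 1.45-fold with EPA and the mitochondrial thioredoxin gene Txn2 fell 1.24-fold. No member was called higher, and no peroxiredoxin that entered the test passed it in either direction. Of the 10 members, 9 were above background and tested, and the 2 that passed (22.2% of 9) stand beside 34.2% of all genes called. The median log2 difference of the 9 lay within 0.01 of 0, and their median absolute difference was 0.14, against 0.18 for all genes tested. The EPA and control arrays did not overlap for Txnip, Txn2 and Prdx1, 33.3% of the members tested, against 47.7% of all genes.

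**Figure D1:**
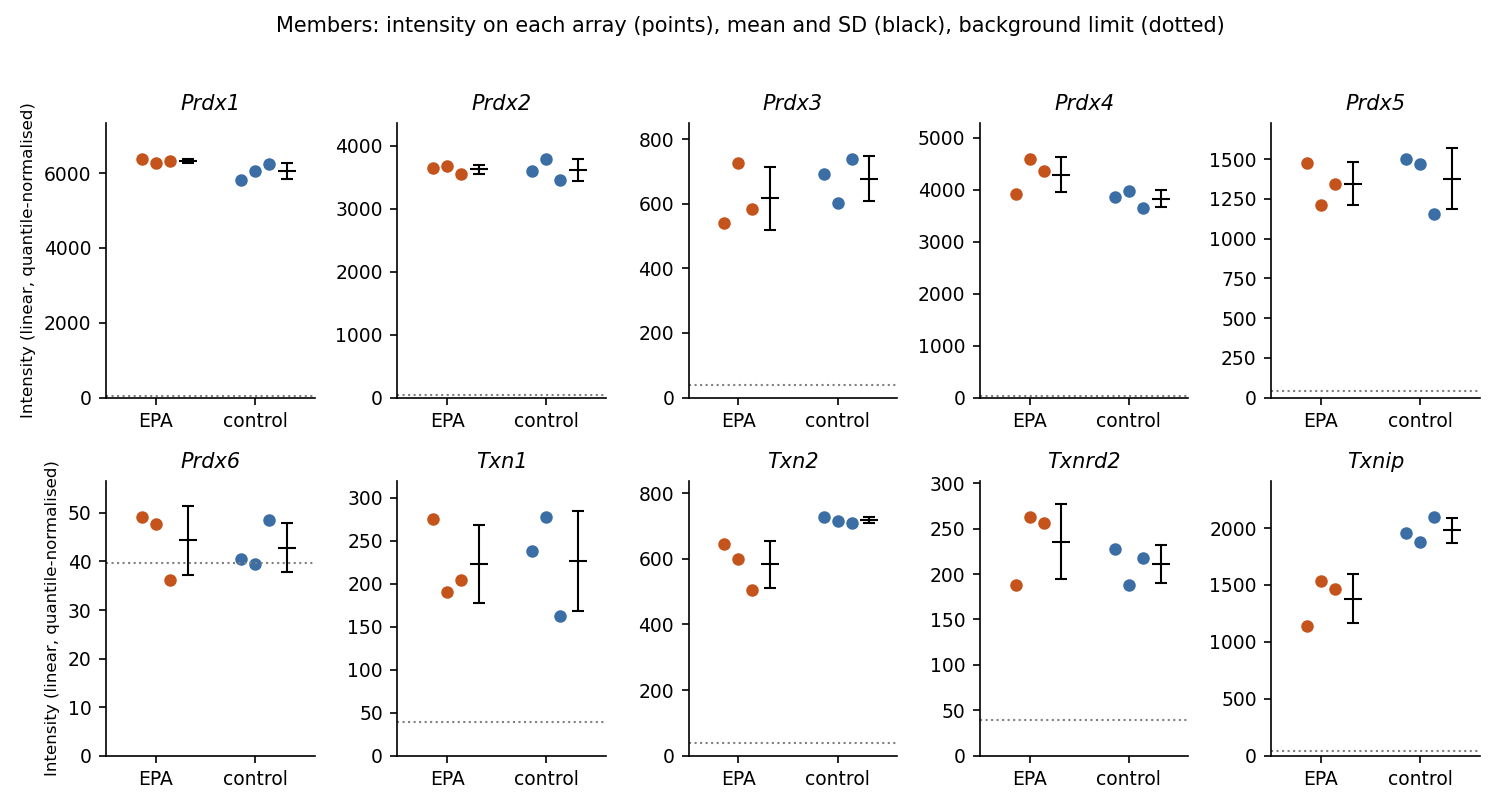
Intensity of the 10 members (vertical axis, linear, starting at 0) on each of the 3 EPA arrays (orange) and 3 control arrays (blue), with the mean and SD in black and the background limit dotted. All EPA points of Txnip and Txn2 lie below all control points, Prdx6 lies on the background limit, and most other members overlap.

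Among the cytosolic peroxiredoxins, Prdx1 had intensities of 6386, 6271 and 6333 on the EPA arrays and 5830, 6069 and 6258 on the control arrays. Every EPA array lay above every control array, by means of 6330 ± 57.7 in EPA cells and 6052 ± 215 in control cells (SD, n = 3 each). The log2 difference of Prdx1 was 0.07 and did not pass (SE 0.0685, 95% interval -0.09 to 0.22, limma adjusted p = 0.494). Prdx2, an abundant cytosolic peroxiredoxin of red cells, read 3647, 3673 and 3542 on EPA arrays and 3602, 3791 and 3446 on control arrays. These groups overlapped fully, and the 95% interval of the log2 difference, -0.16 to 0.16, leaves room for a fold between 0.90 and 1.12.

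The peroxiredoxins of organelles also missed the threshold. Prdx3, the mitochondrial form, gave 541, 726 and 583 on EPA arrays and 693, 601 and 739 on control arrays, with a log2 difference of -0.14 (95% interval -0.41 to 0.12, limma adjusted p = 0.386). Prdx4, which couples peroxide reduction to disulphide formation in the endoplasmic reticulum, gave 3920, 4593 and 4352 on EPA arrays and 3863, 3963 and 3647 on control arrays. Of its EPA arrays, 2 lay above all controls and 1 lay among them, and the log2 difference was 0.16 (95% interval -0.02 to 0.35, limma adjusted p = 0.153). That of Prdx4 was the greatest positive difference among the 9 members tested. Prdx5, found in mitochondria, peroxisomes and cytosol, gave 1479, 1212 and 1347 on EPA arrays and 1503, 1471 and 1157 on control arrays, which overlapped (log2 -0.03, 95% interval -0.28 to 0.23).

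Prdx6, a peroxiredoxin with a single catalytic cysteine that also has phospholipase activity, sat at the background limit. It read 49.2, 47.7 and 36.1 on EPA arrays and 40.5, 39.5 and 48.6 on control arrays, above the limit on 2 of 3 arrays in each group. It therefore did not enter the test. A limma fit without the filter on dim targets gave it a log2 difference of 0.04 (95% interval -0.31 to 0.39, adjusted p = 0.914). No change in Prdx6 was detected, and a signal this close to background would understate one. The names Prdx5 and Prdx6 each stand in the RefSeq table as an older synonym of the other, and both targets are called here by the ID in the file.

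**Figure D2:**
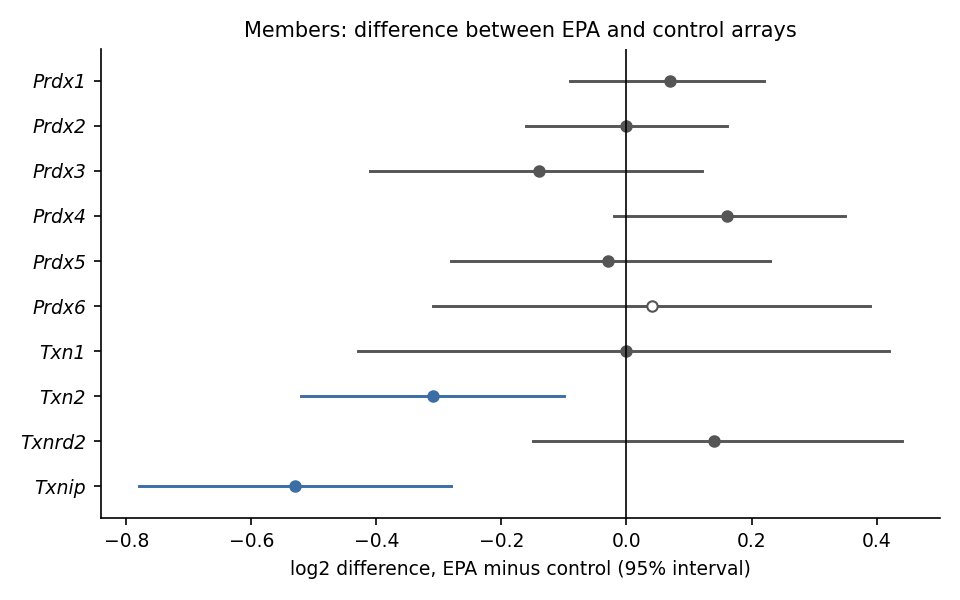
Log2 difference of each member, EPA minus control (horizontal axis), with its 95% interval from limma. Blue marks the falls past an adjusted p of 0.05 (Txnip and Txn2), grey the members not past it, and the open point Prdx6, from the fit without the filter.

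The promoter window of Prdx1 is shown because Prdx1 is a textbook target of NRF2, the transcription factor of the antioxidant response, and that of Srxn1, which encodes the sulfiredoxin that repairs overoxidised peroxiredoxins, because Srxn1 rose where the peroxiredoxins did not pass. The windows come from RefSeq (GRCm38.p6) and lie mostly upstream of the transcription start, printed 5′ to 3′ on the gene's strand at chr4:116685349-116685648 (+) for Prdx1 and chr2:152105274-152105573 (+) for Srxn1. Capitals mark matches, on either strand, to the antioxidant response element core, searched as TGACNNNGC and TGAGNNNGC.
Prdx1: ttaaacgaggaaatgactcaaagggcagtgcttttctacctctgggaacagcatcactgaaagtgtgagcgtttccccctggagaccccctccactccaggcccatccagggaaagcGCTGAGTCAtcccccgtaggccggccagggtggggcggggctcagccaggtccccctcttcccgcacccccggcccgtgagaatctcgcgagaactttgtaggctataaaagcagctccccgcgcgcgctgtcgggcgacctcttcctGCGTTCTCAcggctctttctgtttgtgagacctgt
Srxn1: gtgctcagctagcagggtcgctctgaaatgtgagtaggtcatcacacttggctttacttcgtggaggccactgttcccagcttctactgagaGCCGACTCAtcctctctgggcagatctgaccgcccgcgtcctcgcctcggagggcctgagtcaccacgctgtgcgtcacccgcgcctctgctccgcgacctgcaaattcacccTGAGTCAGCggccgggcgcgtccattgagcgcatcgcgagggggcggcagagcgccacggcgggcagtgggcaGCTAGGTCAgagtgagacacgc
Prdx1 held 2 such matches, beginning 133 bases upstream and 15 bases downstream of the start, and Srxn1 held 3, beginning 158 and 45 bases upstream and 28 bases downstream. The upstream Prdx1 match and the Srxn1 match at 45 bases overlap the AP-1 motif TGANTCA, which 7.81% of windows hold. Of the 32851 RefSeq windows, 27.8% hold at least 1 match to the core, so these letters are common. Windows were found for 9 of the 10 members, and of these Prdx1 and Txn2 held the core. Of the 37 genes with a window in the wider thiol redox list described below, 17 held the core in at least 1 window. Among them were genes that rose, such as Tmx4, and also Arrdc4, Arrdc3 and Sesn2, which fell. Whether the core had a part in the rise of Srxn1 was not tested.

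Srxn1 read 508, 535 and 551 on EPA arrays and 386, 405 and 397 on control arrays. All EPA arrays lay above all control arrays, and the rise was 1.34-fold (log2 0.42, SE 0.0703, limma adjusted p = 0.00153). Txnrd1, the cytosolic thioredoxin reductase, read 60.7, 56.6 and 57.3 on EPA arrays and 39.7, 54.0 and 47.4 on control arrays. It lay close to background and passed with a log2 difference of 0.32 (limma adjusted p = 0.0448). The Txnrd1 call was lost without any 1 array other than control replicate 2 (limma adjusted p = 0.0766 to 0.146), without the filter, with the background level subtracted, with cyclic loess, with an intensity trend and with the replicate block (0.0568). No target named Gsr, the glutathione reductase gene, was found.

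In the thioredoxin pair, the mitochondrial gene moved and the cytosolic one gave no call. Txn2 had intensities of 644, 599 and 505 on EPA arrays and 728, 715 and 710 on control arrays. The control arrays lay close together (SD 9.71, n = 3) and the EPA arrays, all lower, were spread wider (SD 70.9, n = 3), with EPA replicate 3 the lowest. The log2 difference of Txn2 was -0.31 (SE 0.0938, 95% interval -0.52 to -0.10, limma adjusted p = 0.0299). This call held without EPA replicate 1 (adjusted p = 0.0125) and was lost without EPA replicate 2 (0.0522), EPA replicate 3 (0.0964), control replicate 1 (0.0812), control replicate 2 (0.0671) or control replicate 3 (0.0634), while the log2 difference stayed between -0.38 and -0.21.

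Txn1 gave 275, 191 and 204 on EPA arrays and 238, 278 and 163 on control arrays. Its arrays varied more than those of any other member, by 20.3% (coefficient of variation) in EPA cells and 25.7% in control cells, and the groups overlapped. The 95% interval of its log2 difference ran from -0.43 to 0.42, so a change of Txn1 as large as that of Txn2 lies inside it. Whether the pair differed from each other in response was not tested. Txnrd2, the reductase that serves Txn2, gave 188, 263 and 256 on EPA arrays and 228, 188 and 218 on control arrays. EPA replicate 1 of Txnrd2 was as low as the lowest control, and the log2 difference was 0.14 (95% interval -0.15 to 0.44, limma adjusted p = 0.431). Without that array it was 0.30 and passed (adjusted p = 0.0437), so the Txnrd2 result rests on EPA replicate 1.

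**Figure D3:**
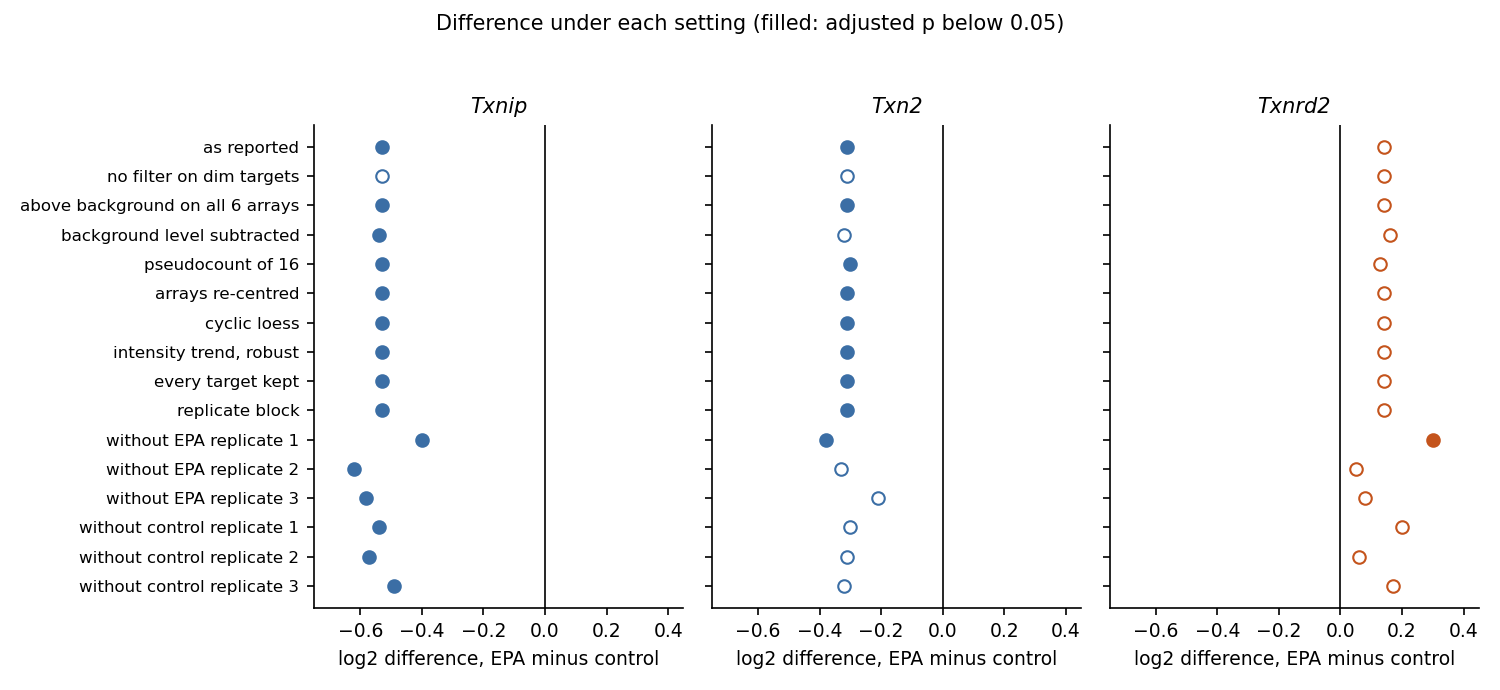
Log2 difference, EPA minus control (horizontal axis), of Txnip, Txn2 and Txnrd2 as reported and under each of 15 alternatives (rows), filled where the adjusted p was below 0.05. Txnip kept its call under 14 alternatives and Txn2 under 8, and Txnrd2 passed only without EPA replicate 1.

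Txnip had intensities of 1135, 1538 and 1466 on EPA arrays and 1956, 1881 and 2099 on control arrays. The groups were well apart, with EPA replicate 1 the lowest of all 6. Its mean was 1380 ± 215 in EPA cells and 1979 ± 111 in control cells (SD, n = 3 each), a log2 difference of -0.53 (SE 0.113, 95% interval -0.78 to -0.28, limma adjusted p = 0.00575). With any 1 array left out the log2 difference of Txnip ran from -0.62 to -0.40 and the call held, but a fit that also took dim targets ended it (limma adjusted p = 0.0648). Txnip was the only one of the 10 members found in the authors' deposited table of fold changes as used here, where raw p-values reach at most 0.05. There the authors' deposited table gives Txnip a ratio of EPA over control of 0.70, a raw p of 0.02 and an adjusted p of 0.13. The adjusted p of the authors' deposited table never falls down its 4423 lines, which run by absolute log2 ratio and not by raw p, so it does not follow from the raw p beside it.

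Txnip belongs to the alpha-arrestins, adaptor proteins that help remove transporters such as glucose carriers from the cell surface. Txnip and its relative Arrdc4 are both textbook targets of MondoA (gene Mlxip) and ChREBP (gene Mlxipl), glucose-sensing factors that bind paired E-boxes together with Mlx. The promoter windows of Txnip and Arrdc4 are shown because both genes fell. They come from RefSeq (GRCm38.p6), at chr3:96557707-96558006 (+) for Txnip and chr7:68749189-68749488 (-) for Arrdc4. Capitals mark CACGNG, read on both strands, in Txnip and the E-box CACGTG in Arrdc4.
Txnip: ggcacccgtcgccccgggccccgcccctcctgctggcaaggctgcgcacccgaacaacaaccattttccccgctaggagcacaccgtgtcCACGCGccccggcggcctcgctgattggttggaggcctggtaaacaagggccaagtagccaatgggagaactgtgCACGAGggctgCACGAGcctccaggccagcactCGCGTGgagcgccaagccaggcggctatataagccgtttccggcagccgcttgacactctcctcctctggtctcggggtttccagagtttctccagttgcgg
Arrdc4: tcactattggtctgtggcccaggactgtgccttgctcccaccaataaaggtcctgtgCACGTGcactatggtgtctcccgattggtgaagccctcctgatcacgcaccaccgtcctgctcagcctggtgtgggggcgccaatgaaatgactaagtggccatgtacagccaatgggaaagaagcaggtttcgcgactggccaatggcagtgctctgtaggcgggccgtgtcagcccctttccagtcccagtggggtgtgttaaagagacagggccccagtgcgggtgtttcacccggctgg
The Txnip window held 4 matches to CACGNG, beginning 160, 85, 74 and 52 bases upstream, and 27.5% of the 32851 windows hold at least 1. The matches at 85 and 74 bases form a pair, searched as CACGNG, 5 bases of any kind and CNCGNG on either strand, which 0.365% of all windows hold. Among the 9 members with a window, Txnip alone held that pair. Only this form of the pair was searched, and it may have been fitted to the Txnip letters, so the match is a description only. Whether the pair had a part in the fall of Txnip was not tested. The Arrdc4 window held 1 CACGTG, 193 bases upstream, as do 7.15% of all windows, and no pair.

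Arrdc4 read 87.5, 86.9 and 73.4 on EPA arrays and 153, 122 and 143 on control arrays. The groups were far apart, and Arrdc4 was 1.69-fold lower with EPA (log2 -0.75, SE 0.104, limma adjusted p = 0.000556). Arrdc3, an adaptor for receptor trafficking, read 154, 150 and 153 on EPA arrays and 176, 206 and 203 on control arrays and fell (log2 -0.36, SE 0.081, limma adjusted p = 0.00806). The groups of Arrdc3 did not overlap, though it was named after its values were seen, and its call was lost when dim targets were kept (limma adjusted p = 0.077). Arrdc2 (log2 -0.26) and Arrdc1 (log2 0.03) did not pass, and their arrays overlapped. The regulator genes showed no call, with log2 differences of -0.07 for Mlxip, -0.07 for Mlxipl and -0.13 for Mlx. The Mlxip and Mlxipl values come from targets under the older IDs AW228700 and WBSCR14, while the targets named MLXIP and MLXIPL did not pass the background filter. Mlx lay near background, with 39.8, 41.7 and 43.7 on EPA arrays and 46.5, 45.8 and 44.4 on control arrays. These did not overlap, and with the background level subtracted the log2 difference of Mlx was -0.37 (limma adjusted p = 0.0634). Without control replicate 3 alone, Mlxipl passed as lower (log2 -0.27, limma adjusted p = 0.0491).

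**Figure D4:**
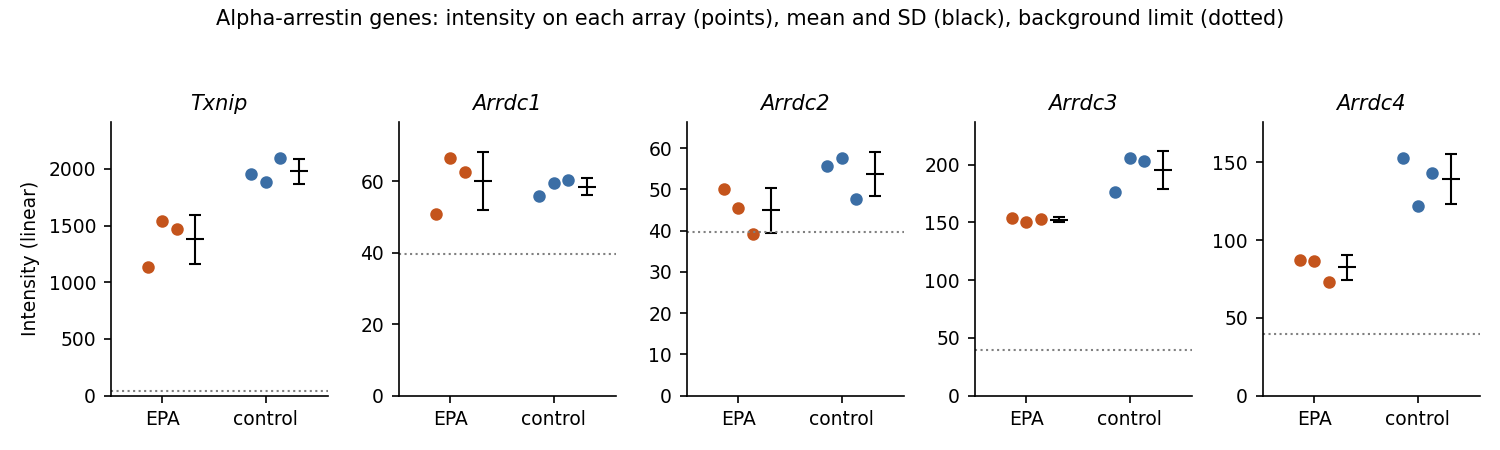
Intensity (vertical axis, linear, starting at 0) of Txnip and the 4 Arrdc genes on each of the 3 EPA arrays (orange) and 3 control arrays (blue), with the mean and SD in black and the background limit dotted. Txnip, Arrdc3 and Arrdc4 lie lower on every EPA array than on every control array, while Arrdc1 and Arrdc2 overlap.

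Over the 6 arrays, the genes whose mean-centred log2 profile lay closest to that of Txnip were Lamtor1 (Euclidean distance 0.139), Arhgef11 (0.156) and 9130024F11Rik (0.164). Lamtor1, a lysosomal scaffold of nutrient signalling, read 522, 712 and 646 on EPA arrays and 828, 782 and 931 on control arrays, with EPA replicate 1 the lowest as for Txnip. Arrdc4 stood at rank 1717 in this order (0.563) and Arrdc3 at rank 868 (0.465), and neither had its lowest EPA value on EPA replicate 1. The 6 arrays carry mainly the contrast between the groups, so these distances are a description only.

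The wider thiol redox list held 43 genes, of which 34 were above background and tested, 6 were not above background and 3 had no target. Of the 34, 11 rose, 3 fell and 20 did not pass, together 41.2% called against 34.2% of all genes, and the median log2 difference was 0.02 against 0.01 for all genes tested. By direction, 18.5% of all genes tested were called higher and 15.7% lower. Of the 11 rises, 7 were among the 10 tested genes (70%) of the subgroup listed as further thioredoxin domain proteins. That subgroup leaves out the thioredoxins, peroxiredoxins and glutaredoxins. By the target used for each gene, 0 of these 10 fell. Txnl4a, a splicing protein of that subgroup, had every EPA array below every control array without passing (log2 -0.14, limma adjusted p = 0.148), and its second target passed as lower in the fit that kept every target (log2 -0.25, limma adjusted p = 0.0223). Tmx4, a membrane disulphide isomerase of the endoplasmic reticulum, read 512, 579 and 572 on EPA arrays and 321, 333 and 332 on control arrays, and rose 1.68-fold (log2 difference 0.75, SE 0.0757, adjusted p = 0.000103 in limma). Txndc5, a soluble disulphide isomerase of the same compartment, read 1703, 1964 and 1852 on EPA arrays and 1106, 1116 and 1160 on control arrays, and rose 1.63-fold (adjusted p = 0.000161 in limma). Both stood clear of their controls on every array. Txndc15 and Txndc11 rose by log2 differences of 0.59 and 0.46. A second Txndc15 target lay below the background limit and was not tested. It read lower with EPA, at 19.2, 18.5 and 17.7 against 23.1, 27.5 and 22.7 on control arrays. Txndc11 lay near background, and with the background level subtracted its log2 difference was 0.88 (limma adjusted p = 0.00824). The other rises, named after their values were seen, were Nxn at 1.35-fold, Txndc12 at 1.32-fold and Tmx1 at 1.28-fold. Without the filter on low intensities the calls of Nxn and Tmx1 were lost (limma adjusted p = 0.0754 and 0.0904). Txndc12 lost its call without EPA replicate 1, EPA replicate 3, control replicate 1 or control replicate 3 (limma adjusted p = 0.0566 to 0.0716).

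Glutaredoxin, encoded by Glrx, reduces mixed disulphides with glutathione and works beside thioredoxin. Its target read 2663, 2557 and 3110 on EPA arrays and 1932, 1946 and 1840 on control arrays, and rose 1.45-fold (log2 difference 0.54, SE 0.0873, adjusted p = 0.00136 in limma). A second target of Glrx gave a log2 difference of 0.59 (SE 0.0736, limma adjusted p = 0.000361 in the fit that kept every target), so both read higher with EPA. Glrx2, Glrx3 and Glrx5 did not pass (log2 -0.19, -0.10 and -0.08), and a second Glrx3 target read 0.08. Of the 4 tested genes for proteins that thioredoxin serves, 1 rose (25%, beside 18.5% of all genes called higher). This was the ribonucleotide reductase subunit gene Rrm1, 1.34-fold higher (424, 405 and 415 on EPA arrays, against 311, 320 and 296 on control arrays, limma adjusted p = 0.00148). The other ribonucleotide reductase subunits Rrm2 (log2 0.24, limma adjusted p = 0.0506) and Rrm2b (log2 -0.12) and the DNA repair gene Apex1 (log2 0.18) did not pass. The 3 tested methionine sulfoxide reductase genes had log2 differences between -0.02 and 0.08, and none passed. Among the sestrins, stress-induced regulators of nutrient signalling, Sesn2 fell (log2 -0.42, SE 0.0915, limma adjusted p = 0.00693), with 97.6, 84.4 and 79.7 on EPA arrays and 110, 114 and 123 on control arrays. Sesn2 too was named after its values were seen, and it missed the threshold when dim targets were kept (limma adjusted p = 0.0713). Sesn1 and Sesn3 had log2 differences of 0.01 and 0.20 and did not pass.

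**Figure D5:**
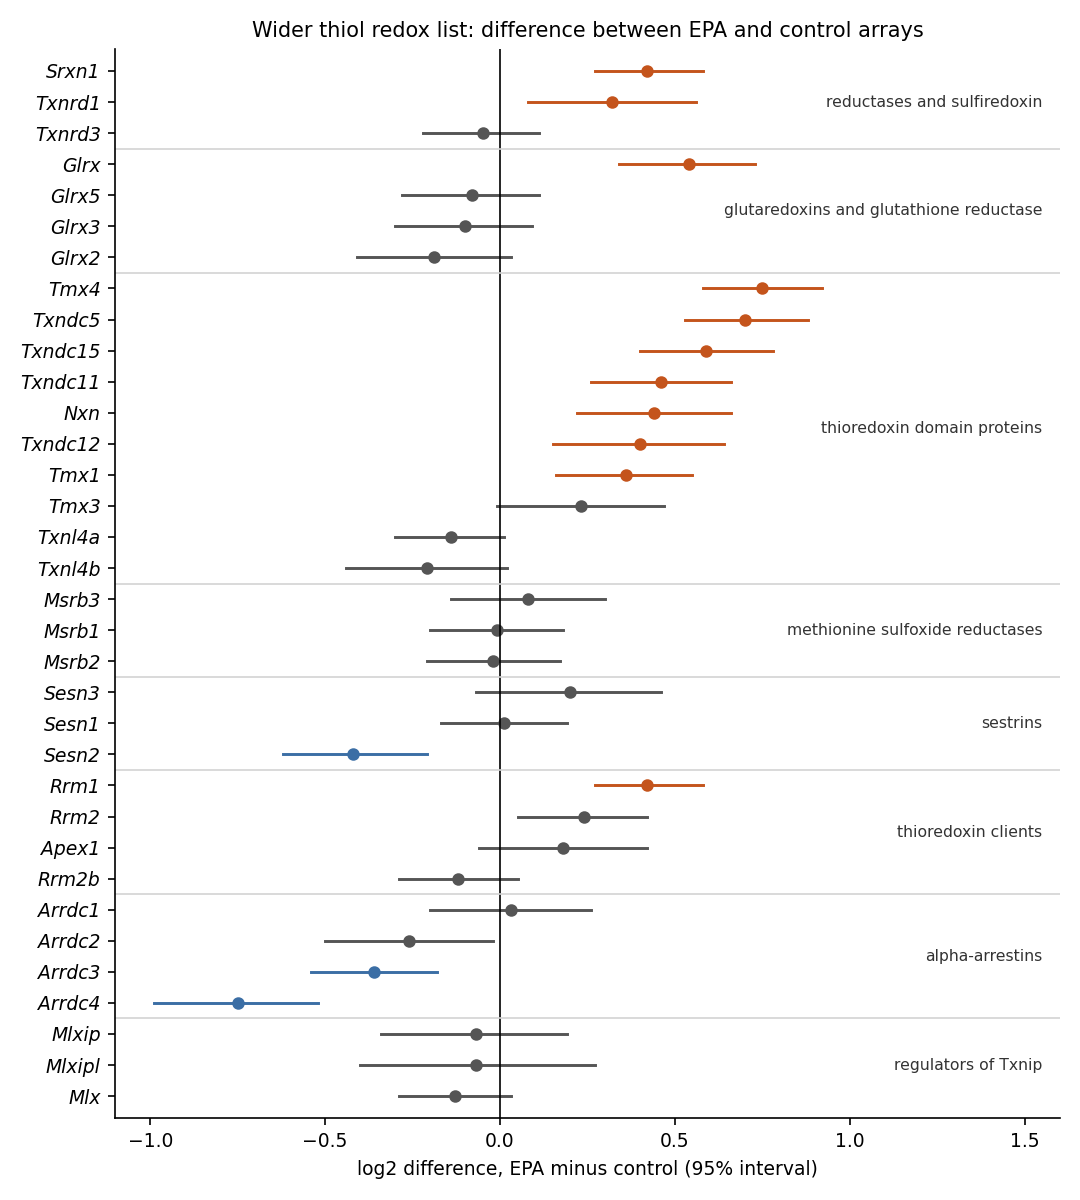
Log2 difference, EPA minus control (horizontal axis), with 95% intervals, for the 34 tested genes of the wider thiol redox list, grouped by role. Orange marks the 11 rises, blue the 3 falls (Arrdc4, Sesn2 and Arrdc3) and grey the 20 genes not past an adjusted p of 0.05.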

How the data were processed

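Biotin-labelled cRNA was hybridised to Illumina arrays, per the labels' protocols, and other exports name GenomeStudio 1.7.0 and quantile normalisation, per the file headers. The values used were the deposited linear intensity per target; the sources used here do not state how several probes of a target were combined. The authors' deposited ratio, log2 ratio and p-value columns were read for the members and the wider list, and only the Txnip values are printed. Another 102 per-array columns were not used, because no label holds their array numbers.

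Targets were named through RefSeq (GRCm38.p6), 1 target per symbol by the highest mean. The background limit of 39.64 is the mode of the intensities (28.18) plus a one-sided level of 0.05 from the spread below it (6.97). The groups were tested on log2 intensity in R 4.3.3 with limma 3.58.1 (two-sided lmFit and eBayes, Benjamini-Hochberg over 9242 genes, threshold 0.05); 95% intervals are unadjusted. Alternatives were other filters, background subtraction, a pseudocount, re-centring, cyclic loess, an intensity trend, every target kept, a replicate block and leaving out each sample. Only 6 arrays limit the precision. An uncorrected background makes folds of dim targets too small. Levels of different targets are not compared.

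The members and lists were chosen with earlier results of these data known. The genes named are the 10 members, the 8 wider-list genes with the smallest p, a fixed set of 5 (Txnrd1, Srxn1, Gsr, Glrx and Arrdc4) and the 3 closest profiles to Txnip; a like search for the member with the largest rise had no member. Others were named after their values were seen. On simulated data for 9242 genes with 200 changed, the fit recovered 69% of genes changed by 0.5 and 98% of those changed by 1 on the log2 scale, with 6 false calls. The simulation drew independent noise and changed a far smaller share of genes than the 34.2% called in the data. Its rates therefore need not hold for these arrays.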

Additional observations from a re-analysis of the deposited data

How the results depend on the processing

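No member was called higher in the fit reported or under 14 of 15 alternatives; leaving out 1 sample in turn gave 0 to 1, the 1 being Txnrd2. The 2 members called lower became 0 without the filter on dim targets, where 19964 genes were tested and 6.58% called, 1 with the background level subtracted (Txnip), and 1 to 2 with 1 sample left out. In the wider list, without the filter the rises numbered 7 and the falls 1, and with 1 sample left out the rises ran from 9 to 13 and the falls from 3 to 5. Of all genes tested, 34.2% were called in the fit reported and 29.7% with the background level subtracted. With 1 sample left out, 25.8% to 32.1% of all genes were called. Txnip kept its direction under all 15 alternatives (log2 -0.62 to -0.40) and so did Txn2 (-0.38 to -0.21). Differences near 0 changed sign when 1 sample was left out: Prdx2 ran from -0.03 to 0.04, Prdx5 from -0.15 to 0.05, Txn1 from -0.22 to 0.16, Mlxip from -0.20 to 0.03 and Mlxipl from -0.27 to 0.04, and apart from the Mlxipl value of -0.27 none of these passed. The cause was not tested. The labels share replicate numbers but do not pair samples, and same-numbered arrays correlated at -0.036, -0.188 and 0.111 in their deviations from the group means. The fit with the replicate block called 0 members higher and 2 lower, 10 wider-list genes higher and 4 lower, and 2930 genes in all; Txnip (adjusted p = 0.00634) and Txn2 (0.0325) passed and Txnrd1 did not (0.0568). Signal over background limits Prdx6, Txnrd1 and other dim targets. With the background level subtracted, an adjusted p of 0.0928 went with a log2 difference of 0.74 for Txnrd1, against 0.32 as reported.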
